A study of Mus musculus with 4 samples.

Results

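10 genes, in 5 pairs on opposite DNA strands, were examined out of 50600 genes listed in the count tables. Each pair joins a gene of T-helper 2 (Th2) cell identity or signalling to the gene whose exons overlap it on the other strand: Gata3 with Gm13256, Il4ra with Gm44876, Gfi1 with A430072P03Rik, Stat6 with Nab2 and Stat5a with Stat3. The members were chosen by name and by their exon overlap, with earlier results of these data known. Counts per gene were available for 4 RNA-seq libraries of primary Th2 cells of mouse strain C57BL/6NJ, CD4 T cells differentiated in culture, which form 1 group without a treatment or a control. The labels number the libraries as biological replicates 1 to 4 but give all of them 1 donor identifier, with sex not collected and age unknown, so the spread between them may be partly technical. A time of 16 hours stands in the file headers and not in the labels. The labels call the assay total RNA, whereas the name of a linked library protocol says poly(A)+, so it is not settled which RNA was captured, and this bears on noncoding against coding levels and on the share of ribosomal RNA.

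Th2 cells are the helper T cells that drive responses to worms and allergens. Interleukin 4 binds its receptor, whose alpha chain Il4ra encodes, and kinases on the receptor activate the transcription factor STAT6, which raises expression of GATA3, the zinc finger factor that defines the lineage. GFI1 is a zinc finger repressor that favours growth of activated Th2 cells, STAT5A relays interleukin 2 signals, and STAT3 relays signals of the interleukin 6 family. Of the other partners, NAB2 is a co-repressor of the EGR transcription factors, and Gm13256, Gm44876 and A430072P03Rik are annotated as noncoding.

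The pairs fell into 3 arrangements, which the exon map shows. At Gata3 and Gfi1 the noncoding gene lies across a start site of the regulator: the end of the annotated gene at Gfi1, and a start inside the annotated gene, of its shorter coding transcript, at Gata3. Gata3 (chromosome 2, 9857078 to 9890034, minus strand, mm10) shares 155 exon bases with Gm13256 (9877256 to 9878869, plus strand), 93 of them in its coding sequence and 62 in a 5′ untranslated exon. The other 365 bases of Gm13256 lie opposite introns of Gata3. Gfi1 (chromosome 5, 107716657 to 107726036, minus strand) shares 101 bases, all untranslated, with A430072P03Rik (107725157 to 107728801, plus strand), of whose exons 1225 bases lie outside Gfi1. Il4ra (chromosome 7, 125552120 to 125579474, plus strand) holds Gm44876 (125570776 to 125572117, minus strand) wholly within its body, and 571 of the 670 exon bases of Gm44876 are shared. Of these 571, 61 are coding in Il4ra, 97 untranslated in a transcript marked for decay, and 413 belong to a transcript with a retained intron. At the STAT genes the partners converge tail to tail, so that only 3′ untranslated bases are shared. Stat6 (chromosome 10, 127642986 to 127660957, plus strand) and Nab2 (127660918 to 127668568, minus strand) share 40 bases, and Stat5a (chromosome 11, 100859351 to 100885169, plus strand) and Stat3 (100885098 to 100939540, minus strand) share 72.

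**Figure D1:**
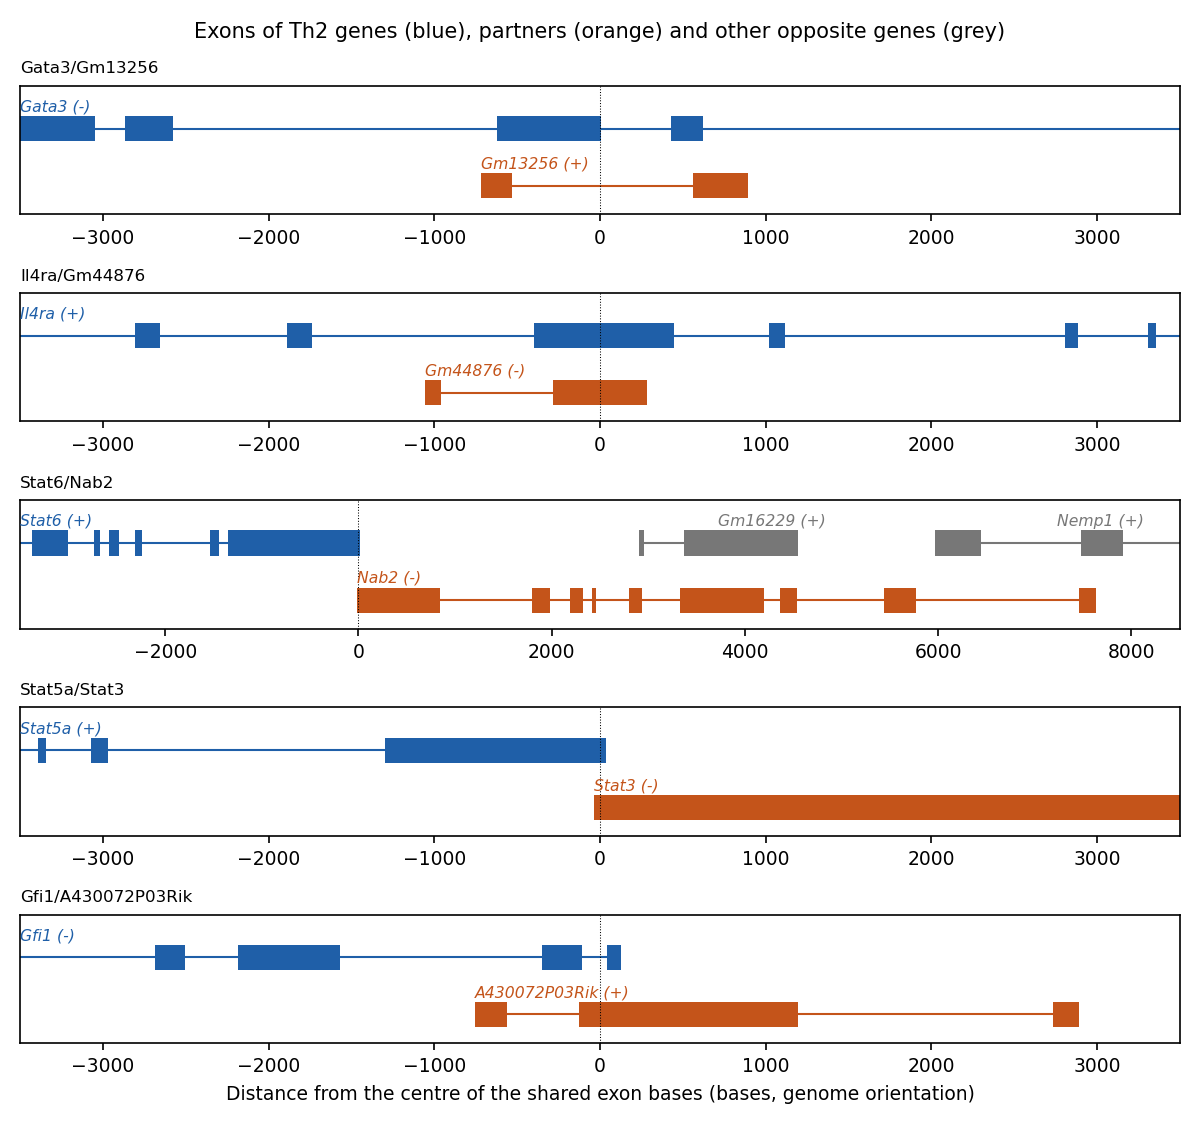
Exons (boxes) and introns (lines) of the 5 pairs, with distance in bases from the centre of the shared exon bases on the horizontal axis and strand in parentheses; genes running past a panel are clipped. Gm13256 and A430072P03Rik span a start site of Gata3 and of Gfi1, Gm44876 lies inside Il4ra, the STAT pairs meet at their 3′ ends, and Nab2 has Gm16229 and Nemp1 opposite as well.

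The sequences below are those at which the 3 noncoding partners meet their regulators, read 5′ to 3′. Exon 1 of Gm13256 (chr2:9877256-9877444, plus strand, GENCODE M21 transcript) is shown because its last 93 bases, in capitals, are opposite Gata3 coding sequence, and it runs past the border of that Gata3 exon, where the Gata3 strand reads GT, the usual start of an intron. The Gata3 promoter (chr2:9878601-9878850, minus strand, RefSeq, GRCm38.p6) is the 250 bases before the RefSeq start site, and all of them lie opposite exon 2 of Gm13256. Capitals there mark GGGCGG, a core of sites bound by Sp1-type factors, searched on both strands. The Gfi1 stretch (chr5:107725806-107725954, minus strand, RefSeq, GRCm38.p6) is the 149 bases before a RefSeq start site of Gfi1, all opposite the second exon block of A430072P03Rik. The last 284 bases of exon 1 of Gm44876 (chr7:125571547-125571830, minus strand, GENCODE M21 transcript) carry in capitals the 44 bases opposite a coding exon of the protein-coding Il4ra transcript, which is again followed by GT on the Il4ra strand. The rest of the 61 shared coding bases lie in a later exon, of the transcript marked for decay, outside the stretch shown.
Gm13256 exon 1: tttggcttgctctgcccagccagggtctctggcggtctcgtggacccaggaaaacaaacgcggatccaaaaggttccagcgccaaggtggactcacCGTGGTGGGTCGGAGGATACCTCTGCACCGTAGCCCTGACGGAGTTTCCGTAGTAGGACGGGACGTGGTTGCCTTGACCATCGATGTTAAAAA
Gata3 promoter: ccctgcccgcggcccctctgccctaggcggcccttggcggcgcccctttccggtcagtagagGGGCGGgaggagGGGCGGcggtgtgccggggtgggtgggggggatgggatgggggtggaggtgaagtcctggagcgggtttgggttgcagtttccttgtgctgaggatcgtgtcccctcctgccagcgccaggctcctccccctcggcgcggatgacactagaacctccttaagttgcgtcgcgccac
Gfi1 promoter: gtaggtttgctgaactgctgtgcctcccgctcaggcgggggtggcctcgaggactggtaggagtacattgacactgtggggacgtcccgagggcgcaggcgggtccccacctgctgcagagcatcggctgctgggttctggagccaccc
Gm44876 exon 1 end: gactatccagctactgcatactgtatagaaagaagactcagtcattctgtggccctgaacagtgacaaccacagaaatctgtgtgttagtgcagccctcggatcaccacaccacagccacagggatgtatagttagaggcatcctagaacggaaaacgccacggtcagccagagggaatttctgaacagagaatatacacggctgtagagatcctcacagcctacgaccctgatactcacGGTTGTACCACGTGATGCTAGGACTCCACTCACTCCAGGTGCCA

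Promoter windows in the RefSeq table, from 250 bases before to 50 after a start site, matched 7 of the 10 members with 9 windows. The Gata3 window held 22 CG dinucleotides and 2 GGGCGG matches, and those of Il4ra, Nab2 and Stat3 held 25, 22 and 15 CG with 1 match each. The 2 windows of Stat5a held 5 CG with no match and 27 CG with 2 matches. The window of Stat6 (8 CG) and the 2 of Gfi1 (10 and 16 CG) held no match. Over 32851 windows the median was 7 CG, and 35.7% held GGGCGG. TTCNNNGAA, the palindrome of STAT binding, the same palindrome with 1 more N between its arms, and GATAA, the core of GATA sites, had no match on either strand in any of the 9 windows. They were found in 8.3%, 6.95% and 25.4% of all windows. A match or its absence describes these letters in these windows only.

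Library totals ran from 1688658 to 2222583 counts, and the members together held 0.12% to 0.135% of a library. All levels here are on the strand that was counted, under strand option 1. Whether that option fits the strand of these libraries was not tested. A level therefore need not be that of RNA made from the named gene. Protein-coding nuclear genes with no opposite exon had a median of 0 TPM. Genes with an exon opposite an exon made up 16.2% of those listed and held 91.8 ± 1.35% of the counts (SD, n = 4). A table of counts per gene does not place reads within a gene or show from which strand the RNA came, so RNA made from a partner and RNA of the Th2 gene assigned to the other strand cannot be told apart here. Fewer cells that express a gene and less of its RNA per cell cannot be told apart either. Of the T cell markers, 9 of 9 had counts in all 4 libraries, Cd4 at 14.3 ± 4.47 TPM and Trac at 22.4 ± 8.29 TPM (SD, n = 4). Of the Th2 markers, 5 of 9 did, and Il5, Il13, Il10 and Il1rl1 had no count. The highest Th2 marker was Ptgdr2 at 57.3 ± 9.1 TPM (SD, n = 4), which has an exon opposite. The marker lists of Th1, Th17, CD8 and natural killer cells, B cells, and mast cells and basophils were summed 1 list at a time. Each list came to at most 9.38 CPM in a library, a maximum reached by the B cell list, with Cd8a, Gzmb and Mcpt8 at 0. Among them the B cell gene Cd79a, at 8.09 ± 2.2 TPM, and Cd8b1, at 3.92 ± 2.29 TPM (SD, n = 4), had counts in all 4 libraries, and both means lie above that of Gata3. Erythroid markers summed to 8.29 to 19.3 CPM, with 110 counts in all of Alas2, which has an exon opposite. Those of myeloid cells summed to 438 to 546 CPM, nearly all from Csf1r, which has an exon opposite, while Lyz2, Itgam and Adgre1 were at 0. Their part in the members' values was not tested.

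In all 5 pairs and all 4 libraries the partner held more counts per kilobase of exon than the Th2 gene. Over all tested pairs, 90.8% had 1 gene higher in every library, and in 77.8% of pairs of a coding and a noncoding gene the coding one was lower in every library. The mean gap ran from 3.45-fold for Stat3 over Stat5a to 386-fold for Gm13256 over Gata3. Each ratio differed from 1 in edgeR's quasi-likelihood test, adjusted over 3248 opposite-strand pairs with 10 or more counts. Such calls were common: 90.2% of all tested pairs were called in either direction, the coding gene was called lower in 79.3% and higher in 12.1% of pairs with a noncoding gene, and 88.8% of coding pairs were called. The count of 5 of 5 called is close to these shares and is no result particular to Th2 genes. The shares of all pairs and of coding pairs hold calls in either direction, so they do not bear on which gene was higher.

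Gata3, the lineage regulator, had 17, 20, 19 and 21 counts in replicates 1 to 4. Gm13256, across its inner start site, had 908, 834, 1155 and 1003. The 2 genes do not overlap in any library, and Gata3 held 1.96 ± 0.309% of the counts of the pair (SD, n = 4), with exact Clopper-Pearson 95% intervals that reach from 0.977% in replicate 3 to 3.59% in replicate 2. Per kilobase the log2 ratio of Gata3 over Gm13256 was -8.67, -8.32, -8.86 and -8.51 in replicates 1 to 4, a mean of -8.59 ± 0.23 (SD, n = 4). The fitted log2 ratio was -8.58 (SE 0.21, edgeR, adjusted p = 6.89e-30). The SD between libraries was under the 0.33 that counting error alone gives for these counts. At 1470 ± 52.1 TPM (SD, n = 4) on the counted strand, Gm13256 ranked 126th of all listed genes by mean TPM, while Gata3 was at 3.83 ± 0.515 TPM.

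Il4ra, the receptor chain for interleukin 4 and 13, had 21, 20, 18 and 34 counts in replicates 1 to 4. Gm44876, inside it, had 734, 713, 798 and 661. Replicate 4 had both the most counts of Il4ra and the fewest of Gm44876, yet even there the partner held 19.4 times the counts. The log2 ratio per kilobase was -8.29, -8.32, -8.63 and -7.44, a mean of -8.17 ± 0.51 (SD, n = 4), and the fitted ratio was -8.12 (SE 0.23, edgeR, adjusted p = 2.41e-28). Counting error alone would give an SD of 0.31. Gm44876 had a level of 857 ± 86.4 TPM (SD, n = 4), and Il4ra one of 3.08 ± 0.997 TPM.
The choice of length moved this ratio in both directions. With the shared bases (85.2% of the exon bases of Gm44876) left out of both lengths the ratio was -10.73, and without any length scaling it was -4.96.

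Gfi1, the repressor, had 29, 26, 31 and 34 counts in replicates 1 to 4, and A430072P03Rik had 189, 174, 269 and 230. The partner was higher in every library, and Gfi1 held 12.4 ± 1.38% of the pair's counts (SD, n = 4). The log2 ratio per kilobase was -3.64, -3.68, -4.05 and -3.69, with replicate 3 apart from the rest, a mean of -3.77 ± 0.19 (SD, n = 4). Counting error alone would give 0.28. The fitted ratio was -3.76 (SE 0.23, edgeR, adjusted p = 1.30e-17). A430072P03Rik was at 101 ± 8.47 TPM and Gfi1 at 7.43 ± 0.794 TPM (SD, n = 4). This gap was the smallest of the 3 with a noncoding partner, and its range over libraries lay apart from those of the Gata3 and Il4ra pairs, whose own ranges overlap.

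Stat6, which carries the interleukin 4 signal to the nucleus, had 36, 42, 55 and 59 counts in replicates 1 to 4. Nab2, which meets it at the 3′ end, had 207, 199, 163 and 230. Nab2 was lowest in replicate 3, and Stat6 held 14.8% of the pair's counts in replicate 1 (exact 95% interval 10.6 to 19.9) and 25.2% in replicate 3 (19.6 to 31.5). The log2 ratio per kilobase was -3.11, -2.83, -2.15 and -2.54, a mean of -2.66 ± 0.41 (SD, n = 4) where counting error gives 0.24. The fitted ratio was -2.64 (SE 0.22, edgeR, adjusted p = 1.18e-13). Stat6 was at 8.52 ± 1.43 TPM and Nab2 at 54.3 ± 11.5 TPM (SD, n = 4).

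Nab2 is the member with more than 1 gene opposite. Gm16229 (chromosome 10, 127663839 to 127665484, plus strand), annotated as antisense, shares 1050 of its 1232 exon bases with Nab2 and had 2185, 2305, 2727 and 2455 counts in replicates 1 to 4. That is 1545 ± 60.6 TPM (SD, n = 4), above Gm13256 in mean level. Nemp1 (127666901 to 127701049, plus strand), which encodes a nuclear envelope protein, shares 151 bases and had 113, 117, 170 and 162 counts. The fitted log2 ratio per kilobase of Nab2 was -4.85 over Gm16229 (edgeR, adjusted p = 7.07e-26) and 1.93 over Nemp1 (edgeR, adjusted p = 4.94e-12). Nab2 thus lay above both coding neighbours and below its noncoding one. The other 9 members have no further gene with an opposite exon.

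Stat5a, the interleukin 2 relay, had 26, 29, 22 and 41 counts in replicates 1 to 4, and Stat3 had 120, 140, 136 and 134. Replicate 4 was highest for Stat5a, whereas Stat3 hardly moved between libraries in raw counts. Stat5a held 18.1 ± 3.95% of the pair's counts (SD, n = 4). The log2 ratio per kilobase was -1.79, -1.85, -2.21 and -1.29, a mean of -1.79 ± 0.38 (SD, n = 4) with 0.30 from counting error alone, and the fitted ratio was -1.76 (SE 0.25, edgeR, adjusted p = 4.87e-08). This was the smallest gap of the 5. Stat3 was at 11 ± 1.32 TPM and Stat5a at 3.30 ± 1.00 TPM (SD, n = 4).

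**Figure D2:**
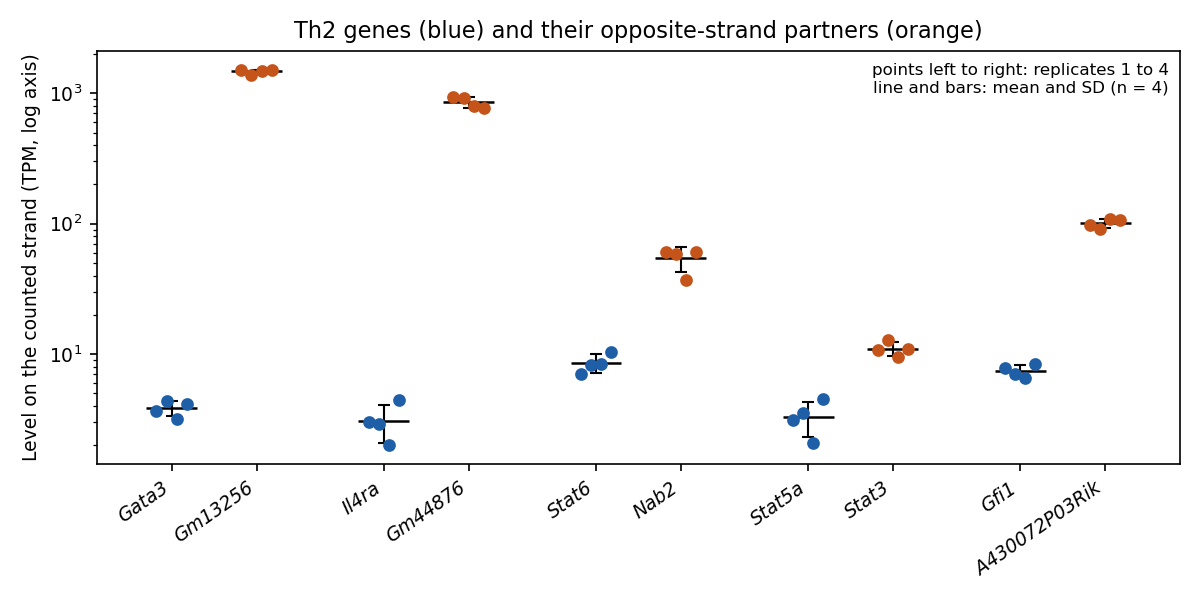
Level of each member in each library, in TPM on a log axis, with the mean and SD (n = 4); blue points are Th2 genes and orange points their partners. Every partner lies above its Th2 gene in all 4 libraries, and the gap narrows from Gata3 and Il4ra to the STAT pairs.

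**Figure D3:**
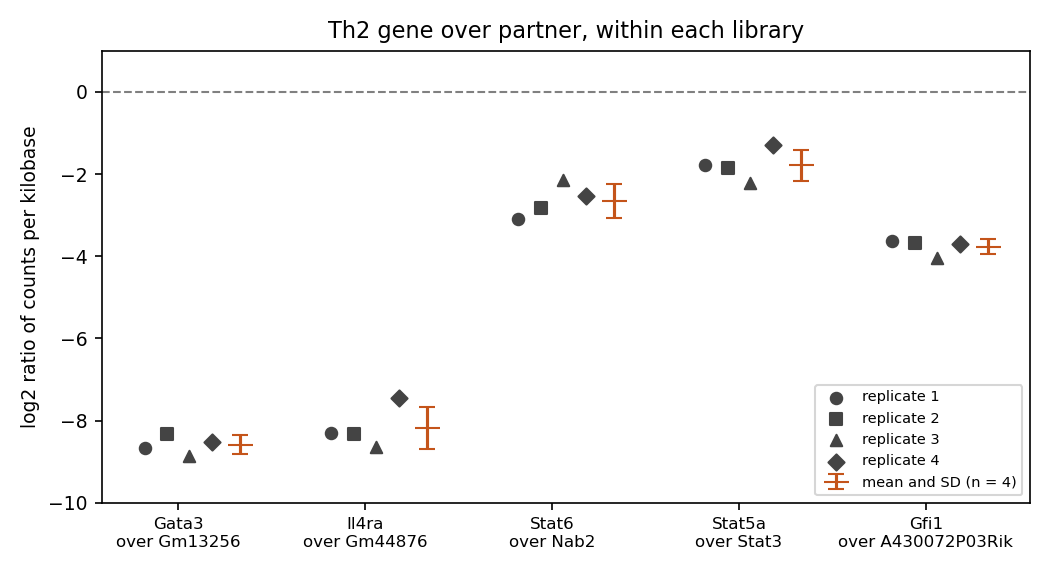
Log2 ratio of counts per kilobase of the Th2 gene over its partner in replicates 1 to 4, with the mean and SD (n = 4). All 20 values lie under 0, between -8.86 and -1.29.

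Ordered by mean TPM, the 4 highest members were partners: Gm13256, Gm44876, A430072P03Rik and Nab2, with ranges over libraries that do not overlap from one to the next. Stat3, Stat6 and Gfi1 followed, and the ranges of neighbours among them overlap. Gata3, Stat5a and Il4ra were lowest and could not be ordered, since their ranges overlap as well. The 3 protein-coding genes nearest to Gata3 in level over the 4 libraries were Lrrfip2, Tes and Cpsf7, with root mean square differences of log2(TPM + 1) of 0.027, 0.095 and 0.098. Within 0.5 lay 1040 of 21750 genes.

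Set against all tested pairs, the 5 ratios were not extreme. The median log2 ratio of coding over noncoding genes was -5.84 over 1826 pairs, and 17% of them lay below the Gata3 pair, 22.3% below the Il4ra pair and 66.5% below the Gfi1 pair. Among 1232 coding pairs the median size of the log2 ratio was 3.27, and 58.7% had a larger gap than Stat6 and Nab2 and 72.2% a larger one than Stat5a and Stat3. Pairs share genes, since 713 of 5709 genes were in more than 1 tested pair.

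**Figure D4:**
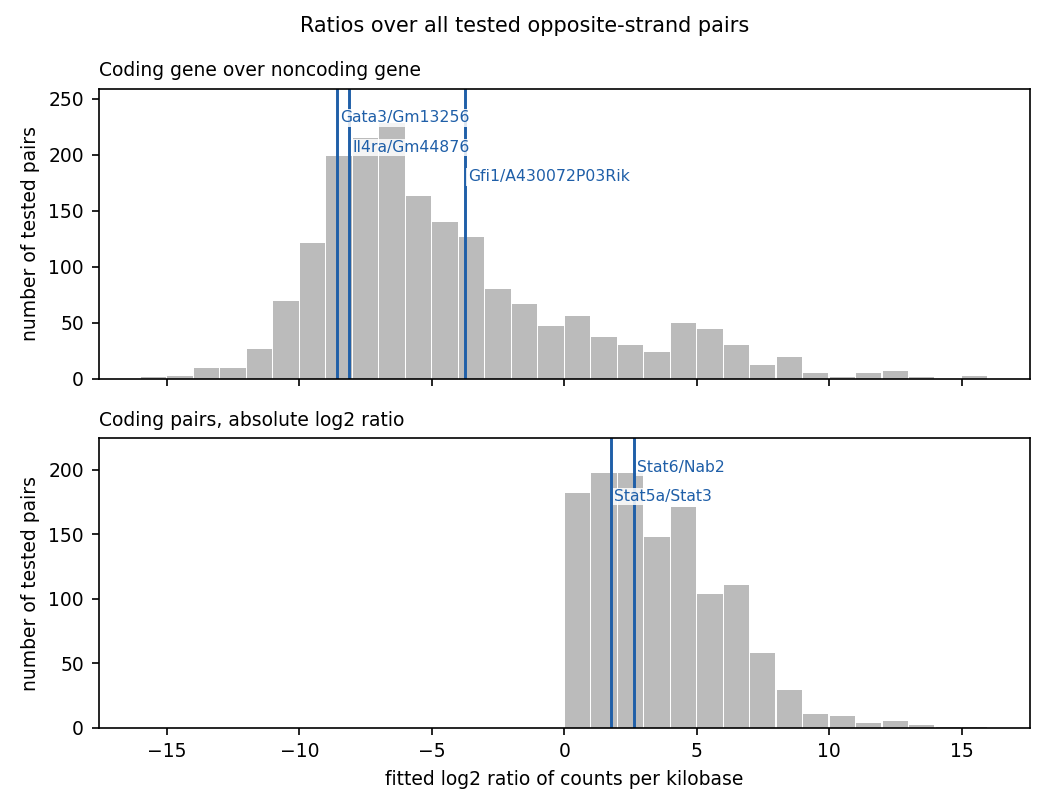
Number of tested opposite-strand pairs by fitted log2 ratio of counts per kilobase, above for coding over noncoding genes (1 pair beyond the axis is left out) and below for coding pairs by the size of the ratio. Vertical lines mark the 5 pairs, which lie within the bulk of both distributions.

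Between replicates no member was called as varying beyond the spread fitted for its abundance. Under the edgeR quasi-likelihood fit 0 of 10 passed at an adjusted p under 0.05, against 22 of 4918 tested genes, 0.447%. At an unadjusted p under 0.05 there were 0 of 10, against 281 of 4918. Nab2 and Gm44876 shared the lowest value among the members (edgeR, adjusted p = 0.988). Counts are few for the Th2 genes. On simulated data for 5192 genes this test recovered 13.5% of genes changed 2-fold in a library and 84.2% of those changed 4-fold. Most 2-fold changes would thus go undetected at this depth. The simulation used a fixed spread and drew the changed genes over a range of abundance, so these shares are not specific to genes with as few counts as Gata3. Of the 5 Th2 genes, 4 (Gata3, Il4ra, Stat5a and Gfi1) had their lowest TPM in replicate 3, as did the partners Nab2 and Stat3. The share over all genes is not given here, so this is no trait of the Th2 genes. In replicate 3 the ribosomal RNA gene CT010467.1 took 9.4% of the counts against 1.29% to 5.05% elsewhere. Its part in the low levels was not tested. With CT010467.1 left out of the scaling, the members' mean levels over all libraries were 1.02 to 1.03 times as high. It cancels in the ratios within a library.

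Of 28 genes of interleukin 4 and common gamma chain receptor signalling, 20 had counts in all 4 libraries. Led by the phosphatase gene Ptpn6 at 17.7 ± 5.78 TPM, Il2 at 14.7 ± 7.25 TPM and Il6ra at 12.2 ± 2.49 TPM (SD, n = 4), the list had a median of 2.03 TPM, against 0.128 TPM over 21751 protein-coding nuclear genes. Of its 9 genes in a tested pair, taken against the partner with the largest overlap, 7 were lower than the partner, 1 was higher and 1 did not pass. Among all coding genes tested against a noncoding partner, 79.3% were lower and 12.1% higher. Of all tested pairs, 90.2% were called in either direction. The 9 pairs mix partner classes. The gene called higher, Jak1, lies opposite Raver2, a coding gene, so its call does not belong with the 12.1%. Among the 7 lower genes, Irs1 had no count and Irs2 had 4 in all. No trait of this list is read from these few pairs. The extremes among called genes were the feedback inhibitor gene Cish, at a log2 ratio of -11.52 over Gm17041 (edgeR, adjusted p = 3.64e-32), and the kinase gene Jak1, at 0.79 over Raver2 (edgeR, adjusted p = 0.0288). Il4ra is itself 1 of the 7.

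In the STAT family the 3 members Stat3, Stat6 and Stat5a held 530, 192 and 118 counts in all. Stat5b, the near-identical neighbour of Stat5a with no opposite exon, had 25, 9, 22 and 35 counts in replicates 1 to 4 and a level of 3.22 ± 1.52 TPM (SD, n = 4), whose range overlaps that of Stat5a. How reads that match both genes were counted was not examined. Stat2 and Stat4, with no opposite exon, had 11 and 13 counts in all.

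Among 22 Th2 transcription factor genes, 19 had counts in all 4 libraries. Junb, an AP-1 subunit gene, was highest at 44.5 ± 3.51 TPM, followed by Tcf7 at 27.5 ± 9.48 TPM and Irf4 at 25 ± 6.67 TPM (SD, n = 4). Each had a mean above the 3.83 TPM of Gata3. Of 8 genes in a tested pair 6 were lower than the partner, Gata3 and Gfi1 among them, 1 was higher and 1 did not pass. Over all pairs of a coding and a noncoding gene the shares were 79.3% lower and 12.1% higher. The gene called higher, Junb, lies opposite Prdx2, a coding gene, so its call does not belong with the 12.1%. No trait of this list is read from these few pairs. The extremes were Runx1, at a log2 ratio of -9.56 over Gm26626 (edgeR, adjusted p = 1.28e-26), and Junb, at 1.81 over Prdx2 (edgeR, adjusted p = 1.07e-08). Of the EGR and NAB genes, 3 of 6 had counts in all 4 libraries. These were Nab2 at 54.3 TPM, Nab1 at 1.53 ± 0.594 TPM and Egr2 at 0.954 ± 0.957 TPM (SD, n = 4), of which Nab1 and Egr2 have no opposite exon. Egr3, at 0.997 ± 0.757 TPM (SD, n = 4), had 3, 2, 2 and 0 counts in replicates 1 to 4.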

How the data were processed

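The authors deposited 1 table of whole-number counts per gene for each of 4 libraries. Per the file headers, featureCounts 1.4.6-p4 counted read pairs with both ends aligned over exons of GENCODE M13 genes, with strand option 1, on mm10. No source used here states the aligner. Symbols and coding regions came from GENCODE M21, whose exons match those deposited for all 10 members. Symbols were found for 99.6% of genes, and genes without one held 0.556% of counts.

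Genes on opposite strands with at least 1 shared exon base formed 4597 pairs (bedtools 2.31.1). Pairs with 10 or more counts entered edgeR 4.0.16 (R 4.3.3): 8 columns, library as a block, offsets for library total and exon length, a quasi-likelihood test of the ratio and Benjamini-Hochberg adjustment over all pairs at 0.05. On simulated data for 3248 pairs this recovered 92.2% of pairs differing 2-fold and 100% of those differing 4-fold, with 14 false calls among 3048. That simulation used a fixed spread and, before any change, the same rate per kilobase for both genes of a pair. Changed pairs were drawn only where both genes had a minimum of expected counts. These shares are therefore not specific to pairs in which a gene has few counts. Both genes of a pair come from the same library, which is where the pairing comes from. Variation between replicates used an intercept-only edgeR fit (TMM, filterByExpr, robust, 3 residual degrees of freedom). TPM was computed from counts and exon lengths. SE is the fitted ratio over the square root of its F. Intervals cover counting error only, and PCR copies are not independent molecules. Alternatives used DESeq2 1.42.0, limma 3.58.1, other lengths and filters, and fewer libraries. The members, lists and tests were chosen with earlier results of these data known. Named are the members, genes opposite them, the 3 highest genes of each list with the called extremes, and the 3 genes nearest to Gata3; the other genes of the lists, the markers and CT010467.1 were added after their values were seen.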

Additional observations from a re-analysis of the deposited data

Results flagged for a closer look

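Of 15 sets of 4 values checked for a library far from the others, 2 had one, where chance alone gives about 1 in 20, and both were in replicate 3. Nab2 had 73.3 CPM in replicate 3 and 117 to 123 CPM in the other libraries, a gap of 0.881 of the whole range. Without replicate 3 its mean was 60 TPM. The log2 ratio of Gfi1 over A430072P03Rik was -4.05 in replicate 3 and -3.64 to -3.69 in the others, a gap of 0.87 of the range.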

How the results depend on the processing

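Each of the 5 ratios kept its direction and stayed past the threshold under all 13 alternatives, with the highest adjusted p at 0.000589 (Stat5a over Stat3, tested in edgeR against a 2-fold ratio). Leaving out 1 library gave -8.67 to -8.48 for Gata3, -8.40 to -7.97 for Il4ra, -2.81 to -2.50 for Stat6, -1.94 to -1.63 for Stat5a and -3.80 to -3.66 for Gfi1. Without length scaling the ratios were -5.65, -4.96, -2.06, -2.18 and -2.83 in the same order. Without the library as a replicate block they were -8.58, -8.12, -2.66, -1.75 and -3.76, and 2958 pairs were called against 2930. The calls of the 5 pairs did not change with the pairing. The number of called pairs ran from 2682 to 2973 over all alternatives. The number of genes varying between replicates was 22, but 2 with library totals only, 52 with 1 count in every library as the filter, 9 without the robust fit, and 11 to 21 with 1 library left out (11 without replicate 4). The cause was not tested. No member passed under any of these. Gata3 was not tested with a mean count of 20 as the filter, and no other tool was run for variation. Levels scaled over protein-coding nuclear genes were 4.21 to 4.26 times as high for all members. Depth limits the Th2 genes most, since Gata3 had 77 counts over the 4 libraries (exact Poisson 95% interval 60.8 to 96.2).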

Other observations

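Other Th2 transcription factor genes with a gene opposite that is not annotated as coding spanned a wide range of ratios. Notch1, a receptor that feeds into Gata3 expression, had 17, 14, 17 and 17 counts in replicates 1 to 4 and a log2 ratio per kilobase of -8.74 over 0610009E02Rik, the tested partner with the largest overlap (edgeR, adjusted p = 6.84e-30), and the proto-oncogene Myb had 5 counts in all and a ratio of -8.04 over Gm26577 (edgeR, adjusted p = 4.35e-19). Satb1, a chromatin organiser gene, had 182, 192, 151 and 217 counts and a ratio of -1.35 over Gm6934 (edgeR, adjusted p = 7.00e-07). Zbtb7b, which encodes the CD4 lineage factor ThPOK, had 13, 16, 25 and 32 counts, and its ratio of 0.14 over Gm15417 did not pass (edgeR, adjusted p = 0.803). Over all 2499 noncoding genes opposite a coding exon, 56.5% had counts in all 4 libraries and the median was 5.79 TPM. Of 16953 protein-coding nuclear genes without an opposite exon 31.6% had counts in all 4 libraries, and their median was 0 TPM. Over all 21751 protein-coding nuclear genes the share was 39% and the median 0.128 TPM. Coding genes with an opposite exon were not summarised apart, so these shares do not compare noncoding with coding genes in the same position.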
